A study of Mus musculus with 24 samples.

Results

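The replication-dependent histone genes were followed in 24 mouse bladder tumors by RNA sequencing of total RNA from which ribosomal RNA had been depleted. The members were taken by name. Every Ensembl identifier of the count table was given its GRCm38 symbol, and 70 genes had a symbol starting with Hist1h, Hist2h, Hist3h or Hist4h. After 3 pseudogenes (Hist1h2aj, Hist1h2al and Hist3h2bb-ps) were left out, 67 members remained of 53465 genes in the table. They comprised 6 genes of the linker histone H1, 18 of H2A, 18 of H2B, 12 of H3 and 13 of H4. The Hist1 cluster on chromosome 13 (chr13:21715763-23934851) held 54 of them, the Hist2 cluster on chromosome 3 (chr3:96219865-96270132) held 10, the Hist3 cluster on chromosome 11 (chr11:58948920-58956830) held 2, and Hist4h4 lay alone on chromosome 6 (chr6:136801553-136804415).

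The tumors were bladder allografts of the 8 BURP tumor lines, 3 tumors from each. Each line came from the bladder tumor of 1 donor, a C57BL/6NTac mouse given the carcinogen BBN at 0.1% in its drinking water from the age of 8 weeks, for at most 36 weeks, and was then passaged under the skin of C57BL/6NTac hosts of the same sex. The basal/squamous (Ba/Sq) lines from male donors were BURP-12BaSq, BURP-17BaSq and BURP-18BaSq, and those from female donors were BURP-21BaSq, BURP-24BaSq and BURP-25BaSq. BURP-16SR, the stroma-rich line with sarcomatoid morphology, and BURP-19NE, the neuroendocrine-like line, were both male. Each of these phenotypes was represented by 1 line and cannot be told apart from that line's own features. The Ba/Sq lines with which they are compared below were of both sexes, so sex differs in part as well. In the study, most BURP-16SR replicates correlated highly with the stroma-rich class, but 1 did so with the neuroendocrine-like class. The tumor cells and the host stroma were sequenced together.

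Histones H2A, H2B, H3 and H4 form the core around which DNA is wrapped, and H1 binds the linker DNA between cores. The replication-dependent genes are transcribed mainly in S phase, when the new DNA has to be packaged. Their RNAs have no introns to splice and usually no poly(A) tail. They end instead just after a conserved stem-loop, which is bound by the stem-loop binding protein Slbp and cut with the help of the U7 small nuclear ribonucleoprotein (Lsm10, Lsm11, Zfp473) and a cleavage complex (Cpsf2, Cpsf3, Sympk). Libraries selected on poly(A) lose most of these RNAs, whereas ribosome-depleted libraries with random primers keep them.

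Of the 24 libraries, total counts ranged from 9295708 to 25370320, and the members took 0.0788% to 0.603% of them. A library of BURP-25BaSq (replicate 2) stood apart, with 62.8% of its counts in ribosomal RNA genes against 5.80% to 19.0% in the other 23. The lowest share of the members, 0.0788%, was that of this library. Over 21383 genes, BURP-25BaSq replicate 3 lay closer to the tumors of BURP-21BaSq (mean root mean square difference 0.565 on the log2(CPM + 0.5) scale) than to the other tumors of its own line (1.09), so its label was in doubt. BURP-17BaSq replicate 2 was also slightly nearer to another line, BURP-24BaSq (0.934), than to its own (0.942). CPM is a gene's share of the library's counts in parts per 1e+06, scaled by the trimmed mean of M values (TMM). The basal and squamous markers Krt5, Krt14, Krt17, Trp63 and Dsg3 summed to 6933 to 13328 CPM in the 18 Ba/Sq tumors. They summed to at most 0.763 CPM in BURP-16SR and to at most 1.14 CPM in BURP-19NE. BURP-25BaSq replicate 3, BURP-17BaSq replicate 2 and the lines near them were all Ba/Sq, so these markers could not settle their labels.

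The stem-loop was searched for, on the RNA strand alone, in every GENCODE M21 transcript (GRCm38), since it is what sets the processing of these RNAs apart. It was found in 46 of the 67 members (68.7%) and in 134 of 55450 genes with a transcript (0.242%). The 46 members carried 8 versions of it. The versions carried by most members, and that of Hist2h2ac, the neighbor of Hist2h2be, are written below as DNA from 5′ to 3′ on the gene's strand and lie beyond the coding sequence, with the stem-loop of 16 bases in capitals and 7 bases to each side in lower case.
Hist1h1c (chr13:23739505-23739534, plus strand): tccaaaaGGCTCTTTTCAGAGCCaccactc
Hist1h4n (chr13:21831791-21831820, minus strand): aactaaaGGCCCTTTTCAGGGCCatccaat
Hist1h2bb (chr13:23747196-23747225, plus strand): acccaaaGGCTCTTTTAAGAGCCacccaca
Hist2h2ac (chr3:96220411-96220440, minus strand): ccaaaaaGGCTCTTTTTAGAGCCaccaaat

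The version shown for Hist1h1c was that of 26 members (3 H1, 10 H2A, 8 H2B and 5 H3 genes), which together held 45.4% of the summed histone level on average. The version shown for Hist1h4n was that of 7 H4 genes with 19.2% of the total, and the version of Hist1h2bb was that of 6 genes with 9.24%. The version of Hist2h2ac was found in no other member. In 21 members no match was found. For 11 of these the annotated transcript stopped at the end of the coding sequence, so the search could not reach the stem-loop. Of the other 10, Hist1h2af and Hist1h2ah had only 6 and 18 annotated bases outside the coding sequence, both ends counted together. By the same count, Hist1h2bc, Hist1h2bq, Hist1h2br and Hist2h2be had 775, 1634, 1816 and 2239 bases. Hist1h2bc and Hist2h2be are known to give polyadenylated RNAs in cells that do not divide.

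Most H2A and H2B genes stand head to head and share the DNA between their starts. There were 12 such pairs with 175 to 305 bases between the annotated starts. RefSeq promoters (GRCm38.p6, 250 bases before to 50 after each start) were matched for 62 of the 67 members. CCAAT stood on either strand in 53 of these 62 promoters (85.5%), against 37.4% of 32851 promoters. It was in each of the 6 H1, 18 H2A, 16 H2B and 10 H3 promoters but in 3 of 12 for H4. The octamer ATTTGCAT, the element bound by Oct-1 (Pou2f1), was in 7 H2A and 6 H2B promoters and in none of the others, 13 of 62 against 1.74% of all promoters. TATAAA was in 35 members (56.5%) against 13.6%.

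The shared stretches of 3 pairs, chosen because one of the pair is described below (Hist2h2be and Hist1h2bc) or because its genes moved closely together (Hist1h2ae and Hist1h2bg), read as follows on the plus strand, with the octamer, CCAAT and TATAAA in capitals where they stand on either strand.
Hist2h2ac and Hist2h2be (chr3:96220881-96221118): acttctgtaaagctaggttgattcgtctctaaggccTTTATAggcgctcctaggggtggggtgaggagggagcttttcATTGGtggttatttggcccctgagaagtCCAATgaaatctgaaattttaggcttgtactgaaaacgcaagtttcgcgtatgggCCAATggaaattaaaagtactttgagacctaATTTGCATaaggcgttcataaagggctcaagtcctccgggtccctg
Hist1h2ac and Hist1h2bc (chr13:23683949-23684198): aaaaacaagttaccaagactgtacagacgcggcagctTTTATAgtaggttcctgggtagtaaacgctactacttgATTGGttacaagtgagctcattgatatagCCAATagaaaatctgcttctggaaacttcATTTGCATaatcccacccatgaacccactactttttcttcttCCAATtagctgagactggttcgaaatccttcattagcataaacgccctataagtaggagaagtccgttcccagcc
Hist1h2ae and Hist1h2bg (chr13:23571221-23571395): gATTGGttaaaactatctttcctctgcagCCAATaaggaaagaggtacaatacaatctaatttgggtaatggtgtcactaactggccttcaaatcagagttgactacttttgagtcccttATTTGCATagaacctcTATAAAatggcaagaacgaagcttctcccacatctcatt

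Each of the 3 stretches held 1 octamer and 1 TATAAA. Of the 8 stretches between paired starts that could be read, the others held no octamer, and some of them no TATAAA. The stretch of Hist2h2ac and Hist2h2be held 3 CCAAT, that of Hist1h2ac and Hist1h2bc 3, and that of Hist1h2ae and Hist1h2bg 2. The letters alone therefore did not separate the pair of Hist2h2be from the other pairs shown. A match is not evidence that a factor binds.

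H4 genes gave the highest levels. Per kilobase of annotated exon, Hist1h4n stood at 343 ± 156 CPM per kb (SD, n = 24 tumors), Hist1h4h at 254 ± 106 and Hist1h4f at 196 ± 91.5. By the same measure the most abundant H2A was Hist2h2aa1 (166 ± 68.9 CPM per kb), the most abundant H2B was Hist1h2bg (157 ± 70.3), the most abundant H1 was Hist1h1c (135 ± 51.5) and the H3 gene with the highest level per kb of exon was Hist2h3b (108 ± 50.6). The order of the H3 and H4 genes depended on the annotated length. Per kb of coding sequence Hist2h3c2 (230 CPM per kb) lay above Hist2h3b (129). By that measure Hist1h4d (458) also lay above Hist1h4h (387) and Hist1h4f (248), and the H1 gene Hist1h1c (332) lay above Hist1h4f. The annotated exons ran from 312 to 7425 bases, and where they extend beyond the processed RNA the level per kb is understated. Hist2h2be stood at 1.69 ± 1.94 CPM per kb of exon.

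Without regard to length, the 3 genes of each class with the highest mean CPM over the 24 tumors were Hist1h1c (211 ± 80.4 CPM), Hist1h1e (175 ± 72.2) and Hist1h1d (160 ± 63.4) for H1. For H2A they were Hist2h2aa1 (97.1 ± 40.4), Hist1h2ap (73.3 ± 39.3) and Hist2h2aa2 (69.4 ± 36.2), and for H2B Hist1h2bg (97.1 ± 43.5), Hist1h2bb (77.1 ± 44.9) and Hist1h2bk (50.5 ± 27.2). For H3 they were Hist2h3c2 (93.8 ± 46.1), Hist1h3f (59.5 ± 32.6) and Hist1h3c (59.4 ± 31.4), and for H4 Hist1h4n (given per kb above), Hist1h4d (141 ± 57.8) and Hist1h4h (119 ± 49.8). Counts were estimated by splitting reads that fit several genes, so the split between near-identical copies is uncertain. How many reads each of these genes shares with others was not measured.

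Of the testis-type genes, Hist1h1t, the H1 of spermatocytes, reached at most 0.812 CPM. Hist1h2aa and Hist1h2ba were under 3 counts in every tumor. The other 65 members had 3 or more counts in at least 1 tumor.

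Histone RNA differed 3.32-fold between the lines with the lowest and the highest mean. Summed over the 67 members, BURP-16SR held the least (1496 ± 371 CPM, SD, n = 3 as for every line) and BURP-25BaSq (4961 ± 1319 CPM) and BURP-24BaSq (4740 ± 661 CPM) the most. Tumors of 1 line differed widely too. The 3 tumors of BURP-18BaSq summed to 1484, 1833 and 3074 CPM.

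The order of the means was BURP-16SR, BURP-19NE (2128 ± 726 CPM), BURP-18BaSq (2130 ± 836), BURP-12BaSq (2986 ± 485), BURP-21BaSq (3484 ± 743), BURP-17BaSq (3614 ± 730), BURP-24BaSq and BURP-25BaSq. Neighbors in this order overlapped, except that every BURP-24BaSq tumor (4110 to 5428 CPM) lay above every BURP-17BaSq tumor (2771 to 4044 CPM). BURP-16SR (1178, 1406 and 1904 CPM) lay wholly below BURP-12BaSq, BURP-17BaSq, BURP-21BaSq, BURP-24BaSq and BURP-25BaSq, but overlapped BURP-19NE and BURP-18BaSq. The mean of BURP-25BaSq was 4503 to 5716 CPM when 1 of its tumors was left out. In bulk tissue, fewer cells in S phase and less histone RNA per cell cannot be told apart.

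**Figure D1:**
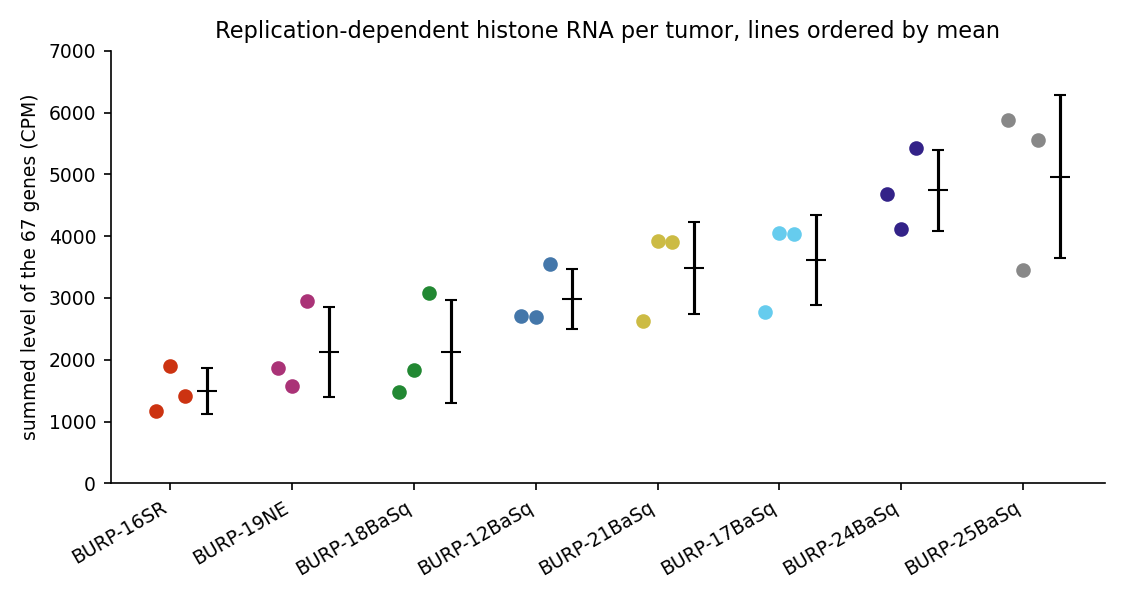
Summed level of the 67 histone genes in each tumor (CPM, y axis) by BURP line (x axis, ordered by mean). Colored points are tumors, and the black bar is the line mean with its SD (n = 3). BURP-16SR holds the lowest tumor (1178 CPM) and BURP-25BaSq the highest (5876 CPM).

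The makeup of the pool varied far less than its size. The H4 genes held 24.1% ± 2.47 (BURP-25BaSq) to 29.2% ± 1.80 (BURP-18BaSq) of the summed CPM of a line, and the H1 genes 19.6% ± 0.891 (BURP-19NE) to 24.5% ± 1.94 (BURP-16SR). The H2B genes held 15.8% ± 1.52 (BURP-18BaSq) to 22.2% ± 0.733 (BURP-19NE), and the ranges of the H2A genes (15.2% to 18.1%) and the H3 genes (14.0% to 16.6%) were narrower still. The 10 genes of the Hist2 cluster held 8.84% to 17.0% of the pool in 23 tumors and 23.1% in BURP-25BaSq replicate 2, the library rich in ribosomal RNA. Whether that library's composition had a part in this was not tested.

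Most members were lowest in BURP-16SR and highest in BURP-24BaSq or BURP-25BaSq. Among the 65 members with counts, the mean was lowest in BURP-16SR for 47, in BURP-18BaSq for 6, in BURP-19NE for 6 and tied at 0 in several lines for 3, and highest in BURP-25BaSq for 30 and in BURP-24BaSq for 27. Across the 24 tumors, a member's log2 level correlated with that of the rest of the pool with a median r of 0.913, and r was above 0.8 for 49 of the 65. These points share library, depth and normalization. The lowest values were those of Hist2h2be (r = -0.73), Hist2h3c1 (0.18, few counts), Hist3h2ba (0.24), Hist1h2ao (0.30, few counts) and Hist1h1t (0.36, few counts).

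**Figure D2:**
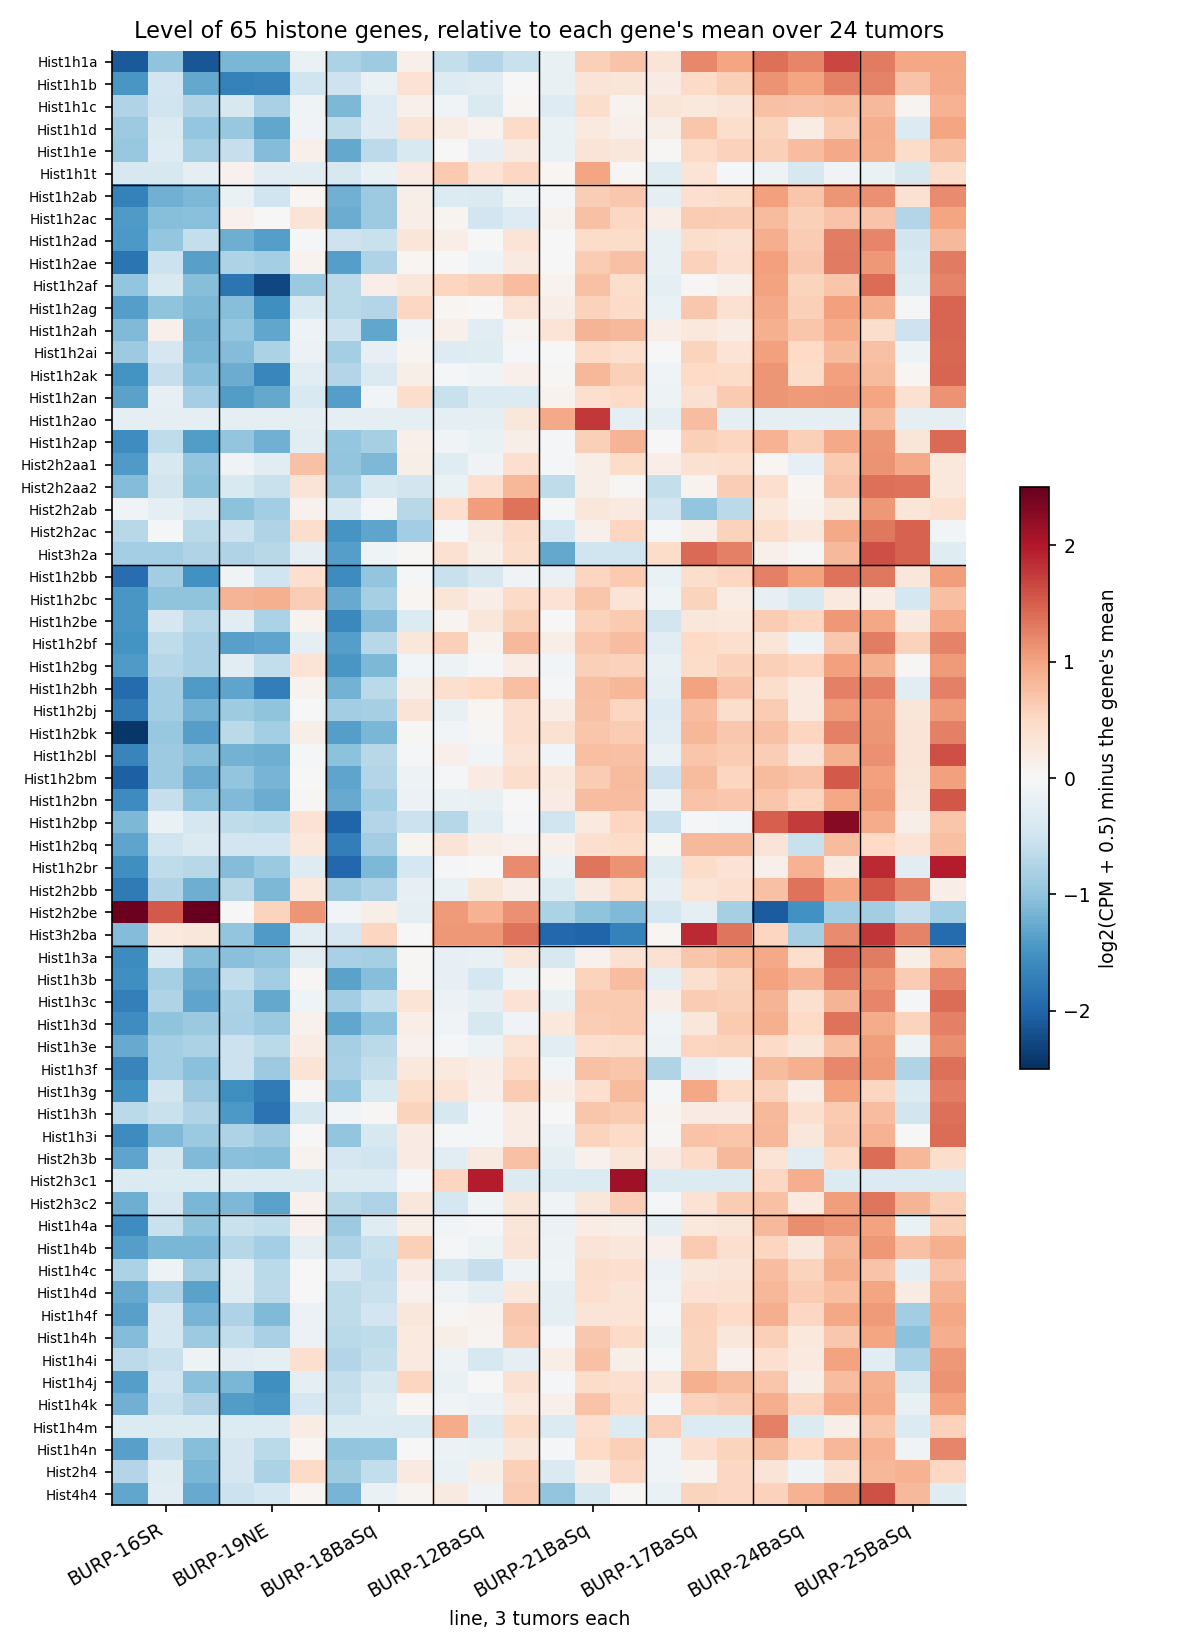
Level of each of 65 histone genes (rows, by class H1, H2A, H2B, H3 and H4 from top to bottom) in each tumor (columns, 3 per line), as log2(CPM + 0.5) minus the gene's mean over 24 tumors, with the color scale ending at 2.5 in each direction. Most rows run from blue in BURP-16SR to red in BURP-24BaSq and BURP-25BaSq, while Hist2h2be runs the other way and Hist3h2ba is lowest in BURP-21BaSq and in BURP-25BaSq replicate 3.

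An F test among the 8 lines (edgeR quasi-likelihood, adjusted p under 0.05) called 60 of the 62 members tested, beside 76.7% of all genes tested. Hist1h4i and Hist2h3c1 were not called. The smallest adjusted p were those of Hist2h2be (4.38e-07) and Hist1h1a (5.51e-06).

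Among the 6 Ba/Sq lines alone, 37 of 64 members were called, beside 50.5% of all genes, and the members therefore stood close to the background. By class, 4 of 5 H1, 11 of 17 H2A, 12 of 17 H2B, 5 of 12 H3 and 5 of 13 H4 genes were called. The smallest adjusted p belonged to Hist2h2be (0.000364), which was highest in BURP-12BaSq (6.63, 5.78 and 7.07 CPM) and at 0.306 to 3.26 CPM in the other Ba/Sq lines. Next came the linker histone gene Hist1h1a (0.000426), at 31.3 to 35.5 CPM in BURP-12BaSq and 122 to 166 CPM in BURP-24BaSq, which do not overlap. Hist1h2bp followed (0.000640), at 9.89, 11.8 and 17.2 CPM in BURP-24BaSq and lower in every other Ba/Sq tumor. Without BURP-18BaSq replicate 1, 23 members were called, and without its replicate 2, 24.

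Hist3h2ba, the H2B gene of the Hist3 cluster, was singled out after its values were seen. It was at 0.0918, 0.0773 and 0.212 CPM in BURP-21BaSq, at or near the level of 3 counts. In BURP-12BaSq it was at 4.42, 4.38 and 5.40 CPM. In BURP-25BaSq it was at 7.52 and 4.92 CPM in replicates 1 and 2 but at 0.112 CPM in replicate 3, the tumor whose RNA resembled BURP-21BaSq. Its neighbor Hist3h2a, an H2A gene that overlaps Trim17 in the annotation, was at 85.1, 77.4 and 22.3 CPM in these 3 BURP-25BaSq tumors, and at no more than 19.4 CPM in BURP-21BaSq. The pair thus split the tumors of BURP-25BaSq in the same way.

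In BURP-16SR, histone RNA of every class was lower than in the Ba/Sq lines and 1 gene was higher. Of 62 members tested, 42 fell and 1 rose (adjusted p under 0.05 and more than 2-fold), where 8.62% of all genes fell and 10.5% rose. The median log2 fold change of the members was -1.25, against -0.03 over all genes tested. The calls covered 2 of 5 H1, 10 of 16 H2A, 11 of 17 H2B, 11 of 12 H3 and 8 of 12 H4 genes that fell, and the 1 that rose was an H2B gene. For 7 members every BURP-16SR tumor lay below every Ba/Sq tumor, as for 5.57% of all genes. These 7 were Hist1h1a, Hist1h2ad, Hist1h2ag, Hist1h3f, Hist1h3h, Hist1h4b and Hist1h4d.

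The linker histone gene Hist1h1a fell most. It was at 11.9, 25.7 and 11.5 CPM in the BURP-16SR tumors and at 28.0 to 166 CPM (median 82.9) in the 18 Ba/Sq tumors, a log2 fold change of -2.25 (SE 0.58, edgeR adjusted p = 0.00746). The groups did not overlap. The H2B genes Hist1h2bk (-1.92, SE 0.48), Hist1h2bh (-1.86, SE 0.45), Hist1h2bm (-1.79, SE 0.46) and Hist1h2bb (-1.76, SE 0.53) came next, with edgeR adjusted p from 0.00478 to 0.0189.

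Hist2h2be went the other way. This H2B gene, best known from olfactory sensory neurons of the mouse, was at 18.2, 9.37 and 19.8 CPM in BURP-16SR and at 0.306 to 7.07 CPM (median 1.63) in the Ba/Sq tumors. Each BURP-16SR tumor lay above each Ba/Sq tumor, as for 5.83% of all genes, and the log2 fold change was 2.75 (SE 0.51, edgeR adjusted p = 0.000429). Its head-to-head partner Hist2h2ac, shown above with the stretch they share, was not called (log2 fold change -0.68). Within lines, Hist2h2be did not run against the rest of the pool (r = -0.09 after line means were removed, against -0.73 across all 24 tumors), so its opposite course was one between lines.

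The number of calls rested on few tumors, while the summed level of BURP-16SR stayed between 1292 and 1655 CPM when 1 of its tumors was left out. Without BURP-16SR replicate 1, the tumor with the least histone RNA, 7 members were called, and without replicate 3, 25 were. Without BURP-18BaSq replicate 1 the count was 52. The call of Hist2h2be held when any single tumor was left out, with a log2 fold change of 2.47 to 3.03 over all alternatives. Stromal markers differed beside the histone genes. Of the fibroblast list (Col1a1, Col1a2, Col3a1, Dcn, Lum, Pdgfra, Pdgfrb), 4 of 7 were called higher in BURP-16SR, and its summed level ran from 582 to 20026.5 CPM there and from 207 to 9796 CPM in the Ba/Sq tumors. Of the endothelial list, 3 of 4 were called higher (Cdh5, Pecam1 and Tie1). The part of these cells in the histone result was not tested.

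**Figure D3:**
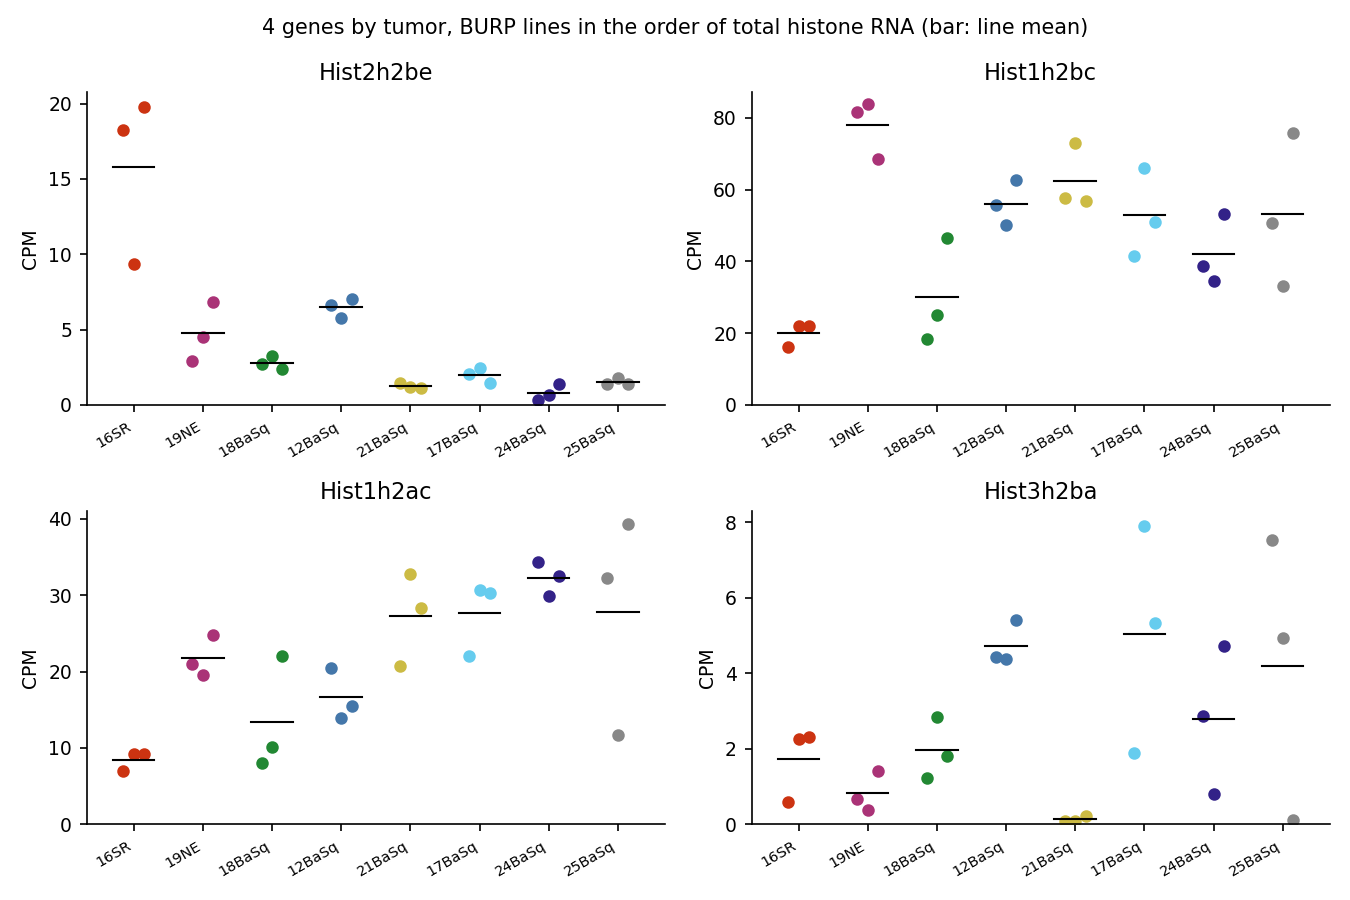
CPM of Hist2h2be, Hist1h2bc, Hist1h2ac and Hist3h2ba in each tumor (y axis, from 0), with the lines in the order of their total histone RNA (x axis) and the line mean as a bar. Hist2h2be is highest in BURP-16SR (9.37 to 19.8 CPM), Hist1h2bc in BURP-19NE (68.7 to 83.9 CPM), and Hist3h2ba is near 0 in BURP-21BaSq and in 1 tumor of BURP-25BaSq (0.112 CPM).

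In BURP-19NE the histone genes were also lower than in the Ba/Sq lines, but fewer passed the test. Of 64 members, 16 fell and 0 rose (edgeR, adjusted p under 0.05 and more than 2-fold), where 15.0% of all genes fell and 9.33% rose. At an adjusted p under 0.05 and any fold, 21 were lower and 0 higher, beside 17.9% and 15.5% of all genes. At an unadjusted p under 0.05, 32 of the 64 members and 9127 of 20995 genes differed. The fold change was below 0 for 62 of the 64. The median log2 fold change was -0.93 against -0.14 over all genes. All 16 lay in the Hist1 cluster: 1 H1, 6 H2A, 3 H2B, 4 H3 and 2 H4 genes.

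The H2A gene Hist1h2af fell most, from 13.0 to 55.8 CPM (median 29.8) in the Ba/Sq tumors to 5.60, 3.95 and 10.8 CPM in BURP-19NE (log2 fold change -2.12, SE 0.41, edgeR adjusted p = 0.000399). It was the 1 member whose groups did not overlap, where 8.5% of all genes were lower and 9.46% higher without overlap. The linker histone gene Hist1h1b was at 21.6, 21.8 and 49.8 CPM against a median of 90.0 and a maximum of 171 CPM, with the highest BURP-19NE tumor inside the Ba/Sq range. Its log2 fold change was -1.66 (SE 0.41, edgeR adjusted p = 0.00338). Hist1h3h (-1.51), Hist1h2an (-1.44) and Hist1h2ak (-1.40) followed. The H2B genes Hist1h2bc and Hist2h2be stood apart, with fold changes above 0 that were not called. Hist1h2bc was at 81.6, 83.9 and 68.7 CPM against 18.4 to 75.8 CPM (median 50.9). Its log2 fold change was 0.68 (edgeR adjusted p = 0.0573). Hist2h2be had a mean of 4.75 CPM against 2.47 CPM, a log2 fold change of 0.97 (SE 0.58, edgeR adjusted p = 0.203).

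The count for BURP-19NE depended on single tumors. Without replicate 3, which summed to 2948 CPM of histone RNA against 1571 and 1864 CPM in the other tumors of the line, 27 members were called, whereas 5 were without replicate 1 and 4 without replicate 2. Leaving out a Ba/Sq tumor gave 16 to 27, with 25 or more for BURP-12BaSq replicates 1 and 2 and for each BURP-18BaSq tumor. DESeq2 called 25.

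Between BURP-16SR and BURP-19NE, most members did not pass the test and the 5 that did were H2A and H2B genes. Of 61 members, 4 were lower in BURP-16SR (edgeR, where 8.86% of all genes were) and 1 was higher (14.8% of all genes). The median log2 fold change was -0.29 against 0.06 over all genes. For 13 members every BURP-16SR tumor lay below every BURP-19NE tumor, beside 28.3% of all genes, and 1 lay above, beside 23.4%. Hist1h2bc was at 16.1, 22.1 and 22.0 CPM in BURP-16SR, below each BURP-19NE tumor, with a log2 fold change of -1.87 (SE 0.17, edgeR adjusted p = 0.00107). Hist1h2ac, its head-to-head partner, was at 7.04, 9.13 and 9.16 CPM in BURP-16SR and at 19.6 to 24.7 CPM in BURP-19NE, again without overlap (-1.27, SE 0.19, edgeR adjusted p = 0.00420). Hist1h2bb (-1.27) and Hist1h2ab (-1.06) were the other 2 that fell. At an adjusted p under 0.05 and any fold the counts of members were also 4 lower and 1 higher, beside 15.1% and 19.2% of all genes.

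Hist2h2be was higher in BURP-16SR than in BURP-19NE (2.90, 4.53 and 6.81 CPM), by 1.82 on the log2 scale (SE 0.41, edgeR adjusted p = 0.0170), and the groups did not overlap. This call was lost when BURP-16SR replicate 1, BURP-19NE replicate 1 or BURP-19NE replicate 2 was left out. Without BURP-16SR replicate 1, 2 members were called, without BURP-19NE replicate 1, 3, and the range over single tumors was 2 to 7.

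BURP-24BaSq and BURP-16SR are the lines that were compared for their response to cisplatin, a drug that damages DNA. The labels name no drug for the tumors used here. BURP-24BaSq is a female line and BURP-16SR a male one, so sex, subtype and line cannot be told apart in this comparison. Histone RNA was higher in BURP-24BaSq across all classes: 55 of 61 members were higher and 1 was lower (edgeR), where 13.2% of all genes were higher and 15.8% lower. The median log2 fold change was 1.64 against -0.05 over all genes. For 58 members every BURP-24BaSq tumor lay above every BURP-16SR tumor, beside 28.2% of all genes, and 1 lay below, beside 25.3%. All genes called in either direction came to 29.0%. At any fold, 57 members were higher and 1 lower, beside 17.6% and 20.4%.

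Hist1h1a differed most. It was at 136, 122 and 166 CPM in BURP-24BaSq, against 11.5 to 25.7 CPM in BURP-16SR, a log2 fold change of 3.05 (SE 0.37, edgeR adjusted p = 0.00124). The H2B genes Hist1h2bp (2.59, SE 0.40), Hist1h2bb (2.54, SE 0.30), Hist1h2bm (2.38, SE 0.37) and Hist1h2bk (2.32, SE 0.40) followed, each without overlap. Hist2h2be was the 1 member that was lower, at 0.306, 0.689 and 1.36 CPM in BURP-24BaSq (-4.34, SE 0.59, edgeR adjusted p = 0.00186). The members that were not called were Hist1h2bq, Hist2h2ab, Hist2h2ac, Hist2h4 and Hist3h2ba. Between 48 and 57 members were called when single tumors were left out. This comparison shares its BURP-16SR tumors with the comparisons above. Beside the histone genes, 2 of 7 fibroblast genes and 4 of 4 endothelial genes were lower in BURP-24BaSq, where the fibroblast genes summed to 1113 to 1646 CPM. Their part in the result was not tested.

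**Figure D4:**
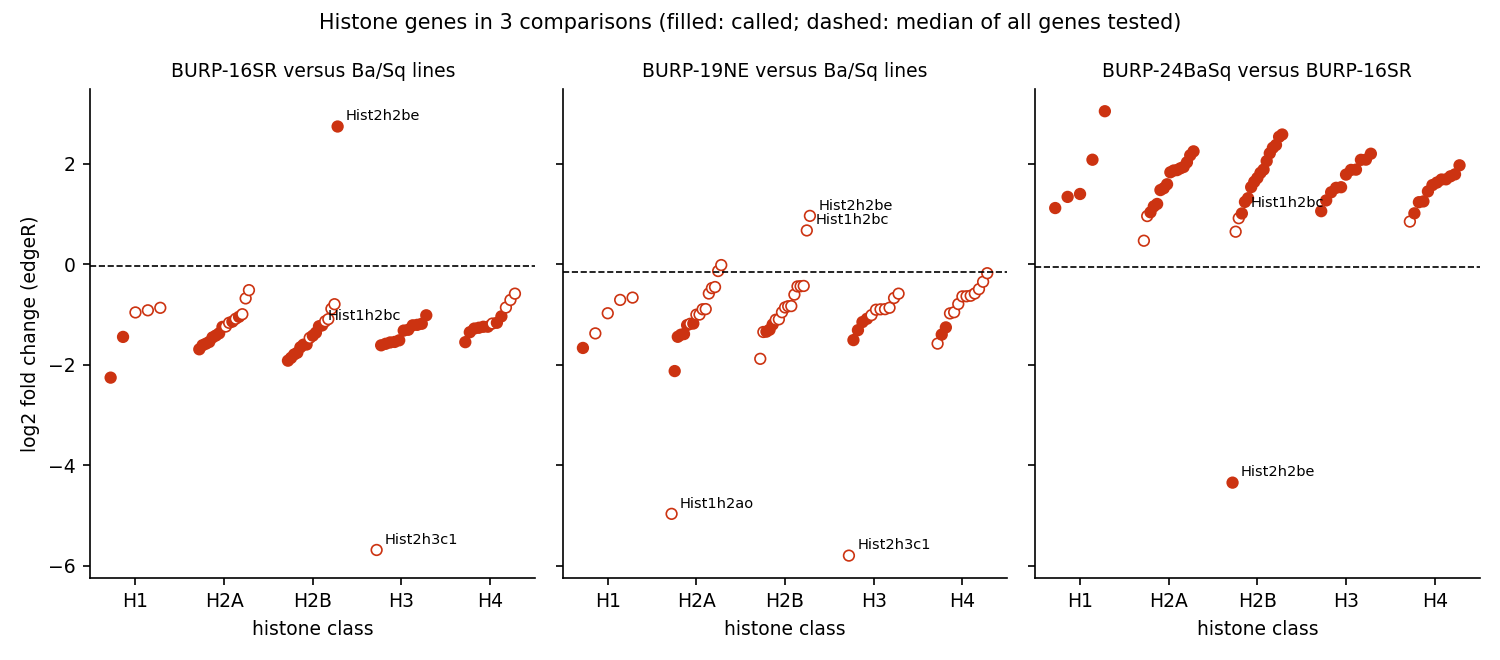
Log2 fold change of each tested histone gene (y axis) by class (x axis) in BURP-16SR versus the Ba/Sq lines, BURP-19NE versus the Ba/Sq lines and BURP-24BaSq versus BURP-16SR. Filled points were called (adjusted p under 0.05 and more than 2-fold) and the dashed line is the median over all genes tested. Hist2h2be runs against the other members in the first and last panels (2.75 and -4.34), and the open points below -4 are Hist2h3c1 and Hist1h2ao, which had few counts.

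Within the Ba/Sq lines, the 9 tumors of male lines held less histone RNA than the 9 of female lines, but with wide overlap. The summed level was 1484 to 4044 CPM (median 2771) in males and 2626 to 5876 CPM (median 4110) in females. Of 61 members, 58 had a log2 fold change below 0, with a median of -0.62 against 0.04 over all genes. However, 3 passed the test as lower in males and 1 as higher (edgeR, adjusted p under 0.05 and more than 2-fold), beside 1.22% and 1.09% of all genes (2.31% in all). At an adjusted p under 0.05 and any fold, 15 were lower and 1 higher, beside 2.47% and 2.99%.

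Hist1h2bp was lower in males (-1.72, SE 0.38, edgeR adjusted p = 0.0157), at 0.412 to 3.11 CPM (median 2.03) against 2.11 to 17.2 CPM (median 5.40). Its highest values were those of BURP-24BaSq alone. Hist1h2bb (-1.09, SE 0.26) and Hist1h3b (-1.03, SE 0.23) were the other 2 that fell. Hist2h2be was higher in males (1.70, SE 0.36, edgeR adjusted p = 0.0131), at 1.43 to 7.07 CPM (median 2.75) against 0.306 to 1.79 CPM (median 1.36). None of the 61 members separated the sexes without overlap, where 0.285% of all genes were higher and 0.195% lower in every male tumor. The number called was 2 without BURP-18BaSq replicate 1 and 7 without BURP-17BaSq replicate 3.

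Tumors of 1 line share a donor, and the sex comparison therefore rests on 3 lines a side. With the counts summed per line, edgeR called 0 members and 0 of all genes, while 36 members and 1388 of all genes had an unadjusted p under 0.05. Line and sex cannot be told apart for a difference carried by 1 line. With both doubted BURP-25BaSq tumors left out, 4 members were called.

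The genes that act with the histones did not move as 1 group. None of these lists was tested as a set. The DNA replication list (35 genes of the replication fork, origin licensing and nucleotide supply) moved with the histone genes. In BURP-16SR against the Ba/Sq lines 8 of the 35 fell (median log2 fold change -0.51), in BURP-19NE 11 fell (-0.79), and in BURP-24BaSq against BURP-16SR 11 were higher (0.71). Of all genes, 8.62%, 15.0% and 13.2% were called in these directions. The replication factor gene Rfc3 (-1.37) and Dtl (-1.29), which targets licensing factors for destruction, fell in BURP-16SR, and Mcm5 (-1.84) and Mcm4 (-1.77) of the replicative helicase fell in BURP-19NE. Of 21 genes of G2 and mitosis, 9 fell in BURP-16SR, Nusap1 (-1.41) and Plk1 (-1.21) most, and 1, Aurkb (-1.23), fell in BURP-19NE, beside the same 8.62% and 15.0% of all genes.

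Across the 24 tumors, the summed histone level correlated with the summed DNA replication level at r = 0.907 (Spearman's rho 0.905), and at 0.837 after the line means were removed. With G2 and mitosis r was 0.896. The tumors share library, depth and normalization with themselves on both axes, and 3 tumors share a line. The ratio of the 2 sums was not constant. It was 1.59 ± 0.206 in BURP-16SR and 1.90 ± 0.340 in BURP-18BaSq, and 3.21 ± 0.320 in BURP-24BaSq and 3.25 ± 0.243 in BURP-25BaSq (SD, n = 3). Each BURP-16SR tumor (1.35 to 1.73) lay below each BURP-24BaSq tumor (2.90 to 3.54).

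**Figure D5:**
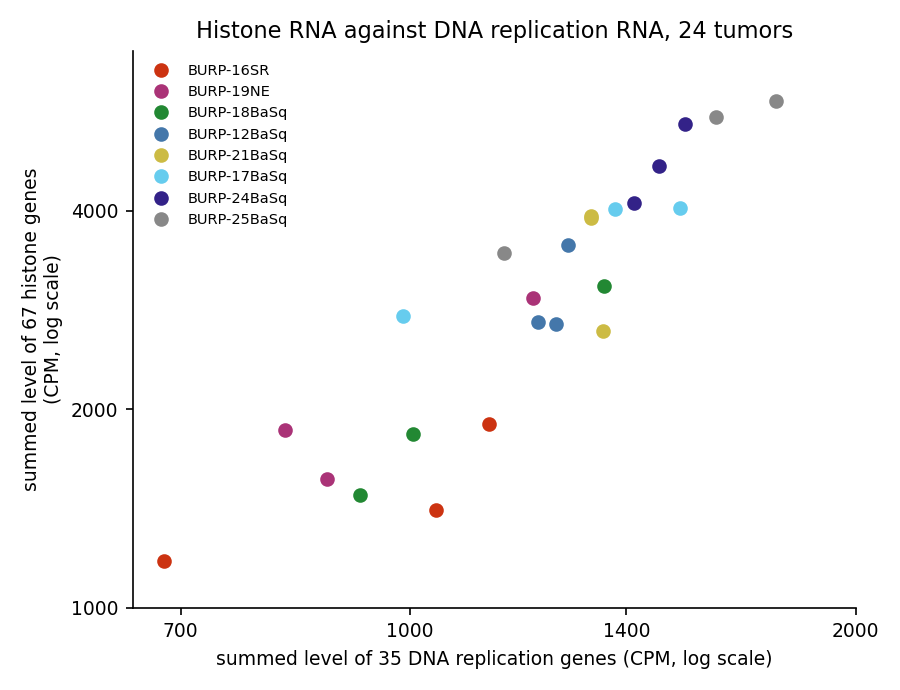
Summed level of the 67 histone genes (y axis, CPM, log scale) against that of 35 DNA replication genes (x axis, CPM, log scale), 1 point per tumor, colored by line. Both rise together over the 24 tumors (r = 0.907). The ratio of the 2 sums is 1.35 to 1.73 in BURP-16SR, which overlaps BURP-18BaSq (1.60 to 2.27).

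The summed level of the genes of histone RNA processing and turnover did not follow that of the histone genes (r = 0.05). Upf1, Srrt and Sympk, the most abundant of this list, weigh most in the sum. Of 14 genes, 1 fell in BURP-16SR (Zfp473, -1.67, the zinc finger protein of the U7 particle). In BURP-19NE 3 fell (Zfp473, -1.72, Lsm11, -1.15, and the cap-binding gene Ncbp2, just past the 2-fold limit). Zfp473 was higher in BURP-24BaSq than in BURP-16SR by 1.53, as were the chaperone gene Nasp (1.51), Hat1 (1.39) and Casp8ap2 (1.09), while Ipo4 (-1.45) and E2f1 (-2.20) were lower. Of the 8 genes of histone transcription and its nuclear body, E2f1 rose in BURP-16SR (1.66) and Ccne1, the cyclin that drives entry into S phase, fell in BURP-19NE and was lower there than in BURP-16SR as well (BURP-16SR higher by 1.89). Of 10 chaperone and import genes, Hat1, which acetylates new H4, fell in BURP-16SR (-1.13), Chaf1b, a subunit of the chromatin assembly factor, fell in BURP-19NE (-1.16), and the importin gene Ipo4 rose there (1.39).

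In level, the most abundant of each list over the 24 tumors (mean CPM ± SD, not per length, so no order between genes is read) were as follows. Among the DNA replication genes the ribonucleotide reductase subunits Rrm1 (97.8 ± 39.7) and Rrm2 (75.1 ± 34.0) and the helicase subunit Mcm7 (83.2 ± 22.0), and among the mitotic genes Mki67 (530 ± 263), Top2a (297 ± 132) and Cenpf (117 ± 43.7), had the highest CPM. Among the processing genes these were Upf1 (115 ± 27.0), Srrt (110 ± 17.0) and Sympk (104 ± 33.9), among the transcription genes Pou2f1 (71.4 ± 22.4), Casp8ap2 (42.1 ± 11.1) and Cdk2 (39.3 ± 9.03), and among the chaperones Nap1l1 (183 ± 55.6), Rbbp7 (mean 111) and Rbbp4 (mean 111).

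The 11 replication-independent variants, most of whose RNAs are polyadenylated, were mostly not called. H1fx (-2.57) and H3f3a (-1.29) fell in BURP-16SR, and H2afx (-1.08) and H3f3b (-1.04) fell in BURP-19NE. The variants with the highest CPM were H3f3b (437 ± 164), H3f3a (144 ± 55.9) and H1f0 (113 ± 53.0). Their summed level correlated with that of the members at r = 0.848. The other RNAs without poly(A) tails, such as Rn7sk, Rpph1 and Rmrp, gave r = -0.25. Of these 10, Terc (-1.55) fell in BURP-16SR and Rnu11 (-7.04) and Snord17 (-1.99) fell in BURP-19NE, and the median of the list was 0.09 in BURP-16SR and -0.64 in BURP-19NE. The 2 most abundant ribosomal RNA genes gave r = -0.10, and -0.49 after the line means were removed. Their share of the counts was 17.0% to 19.0% in BURP-16SR replicate 1 and BURP-18BaSq replicates 1 and 2. These were among the tumors with the least histone RNA. Other tumors low in histone RNA had smaller shares. The share was 9.99% in BURP-16SR replicate 3 (1406 CPM of histone RNA). In BURP-19NE replicates 1 and 2 (1864 and 1571 CPM) it was 6.79% and 5.80%. The part of the ribosomal RNA genes in the histone levels was not tested. In the sex comparison 1 DNA replication gene, Rfc3 (-1.01), was lower in males, H2afj was higher (1.12), and 0 of the 21 mitotic, 14 processing and 10 chaperone genes were called.

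The head-to-head pairs differed in how closely their genes moved. Over the 24 tumors r of the log2 levels was 0.959 for Hist1h2ae and Hist1h2bg and between 0.812 and 0.957 for 7 other pairs on chromosome 13. It was 0.759 for Hist1h2ac and Hist1h2bc and 0.288 for Hist1h2ao and Hist1h2bq, the first of which had few counts. No r was computed for Hist1h2aa and Hist1h2ba, which had too few counts. It was -0.36 for Hist2h2ac and Hist2h2be. Members also moved with the rest of the pool, at a median r of 0.913. Hist1h2ae and Hist1h2bg stood at 0.972 and 0.954 with the rest of the pool, so their high r was not particular to the pair. Hist1h2ac and Hist1h2bc both fell in BURP-16SR (-1.45 and -1.23) and were both above BURP-16SR in BURP-19NE, while Hist2h2ac and Hist2h2be had opposite signs in BURP-16SR (-0.68 and 2.75). Of that last pair, Hist2h2be was called and Hist2h2ac was not.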

How the data were processed

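Total RNA of 24 BURP tumors was depleted of ribosomal RNA, and libraries were made with random primers from 500 ng of RNA and sequenced as paired ends. According to the submitters' processing notes, the authors used CASAVA 1.8.2, STAR 2.6.0a and RSEM 1.3.1 with GRCm38, and the deposited values are RSEM's estimated counts per gene. RSEM splits reads that fit several genes, and 61 of the 67 members held values that were not whole, so levels of near-identical histone genes are uncertain. Its strand setting is not given in the sources used here, and Hist1h1e and Hist1h2be, and Hist3h2a and Trim17, overlap.

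Estimated counts were rounded. Symbols came from GENCODE M21. Genes passing filterByExpr were tested with the quasi-likelihood test of edgeR 4.0.16 (limma 3.58.1, R 4.3.3) after TMM, with Benjamini-Hochberg adjustment over all genes tested. Calls needed a change of more than 1 on the log2 scale in either direction together with an adjusted p below 0.05, and for F tests among lines the adjusted p alone. Levels are CPM after TMM, and correlations use log2(CPM + 0.5). A count of 3 was taken as the floor. Library totals of 9295708 to 25370320 limit the precision of genes with few counts. The limit was strongest in BURP-25BaSq replicate 2, where 3 counts equaled 1.34 CPM, against 0.106 to 0.412 CPM in the other tumors. Replicate tumors differed beyond sampling noise, and since tumors of a line share a donor, p-values measure the spread between tumors. The scripts were tested on simulated counts.

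The members and lists were chosen with earlier results of these data known. Named with values were the 3 members of each class with the highest CPM, up to 5 called members with the largest change in each direction per comparison, the testis-type genes, and from each list the 3 genes with the highest CPM and up to 2 called genes in each direction per comparison. Alternatives were DESeq2 1.42.0 and its size factors, other count filters, ribosomal RNA genes left out, other sets of tumors in the fit, counts summed per line, and each tumor left out. Leaving out both doubted BURP-25BaSq tumors was chosen after seeing the data. Some listed genes are not reported here.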

Additional observations from a re-analysis of the deposited data

Results flagged for a closer look

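Of 80 groups of tumor values examined, 2 held a tumor far from the others, and chance alone marks about 1 in 20 groups. Hist1h1t, the testis-type H1 gene, reached 0.812 CPM in BURP-21BaSq replicate 2, and its gap to the next of the 9 female Ba/Sq tumors was 0.515 of the whole range. Hist1h2bm, an H2B gene, reached 84.0 CPM in BURP-24BaSq replicate 3, with a gap of 0.503 of the range. Both gaps were above Dixon's limit for 9 tumors. The cause was not tested.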

How the results depend on the processing

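When each tumor was left out in turn, the members called ran from 58 to 62 among the 8 lines, from 23 to 52 among the 6 Ba/Sq lines, from 4 to 27 for BURP-19NE versus the Ba/Sq lines, from 7 to 52 for BURP-16SR versus the Ba/Sq lines, from 2 to 7 for BURP-16SR versus BURP-19NE, from 48 to 57 for BURP-24BaSq versus BURP-16SR and from 2 to 7 for male versus female Ba/Sq lines. DESeq2 called 25 members in BURP-19NE versus the Ba/Sq lines. In the sex comparison 2 were called with at least 10 counts in every tumor, 7 with all 24 tumors in 1 fit and 0 with counts summed per line. The summed level of BURP-24BaSq was 5511 CPM with the ribosomal RNA genes left out. In that setting the library totals behind CPM were smaller in every tumor, so these levels are on another scale. The cause of the other moves was not tested, except that sums per line leave 3 values a side. With both doubted BURP-25BaSq tumors left out, chosen after seeing the data, 59, 43, 17, 44 and 4 members were called among the 8 lines, among the 6 Ba/Sq lines, in BURP-19NE, in BURP-16SR and between the sexes. No called value reversed its direction under these alternatives. Of the single-gene values, 2983 kept their side of the threshold, 87 newly passed it and 84 no longer did. Depth limits Hist2h3c1, Hist1h2ao, Hist1h1t and Hist3h2ba, which were near 3 counts in several tumors. No paired analysis was possible because the labels give a cage and mouse or a passage for each tumor and no replicate numbers shared between groups.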
